A study of Sus scrofa with 20 samples.

Results

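The genes of 10 peptide hormones of the gut and pancreas were examined in RNA sequencing of pig cells, namely GCG, INS, SST, PPY, PYY, GHRL, GAST, CCK, VIP and NPY. They were taken by gene name from a table of 25764 genes, and all 10 had a row. The table holds 20 libraries in 6 sorted groups. Porcine biliary tree stem cells (pBTSCs) made up 5 libraries, and liver cells made up 15, of which 4 were CD45-/EpCAM+, 2 CD45-/EpCAM-, 5 CD45+, 2 CD31+ and 2 CD146+. CD45 is the common leukocyte antigen, EpCAM an epithelial adhesion molecule, CD31 an endothelial antigen and CD146 an antigen of endothelial and perivascular cells. The labels give gallbladder as the tissue of the pBTSCs, and the study's text adds the cystic and common ducts. The pBTSCs came from piglets, were selected by surface antigens and formed organoids in a serum-free medium, with no treatment being compared. The study lists pBTSC libraries S2, S7 and S11 as piglets of an H2B-GFP line, in which histone H2B joined to green fluorescent protein is expressed from the ACTB locus in all tissues, and S15 and S20 as wild-type piglets. Neither the labels nor the study's text ties a liver library to a donor.

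Peptide hormones are cut from longer precursors in secretory granules and released on stimulation. In the islets of the pancreas, alpha cells make glucagon (GCG), beta cells insulin (INS), delta cells somatostatin (SST) and gamma cells pancreatic polypeptide (PPY). Enteroendocrine cells of the stomach and intestine make ghrelin (GHRL), gastrin (GAST), cholecystokinin (CCK), peptide YY (PYY), and again somatostatin and the glucagon precursor, which in the gut yields the glucagon-like peptides. Vasoactive intestinal peptide (VIP) and neuropeptide Y (NPY) are transmitters of enteric and autonomic nerves, which also run in the wall of the gallbladder and bile ducts, where cholecystokinin makes the gallbladder contract. Somatostatin and cholecystokinin are made by neurons as well.

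Depth decides what can be said of genes at this level. Estimated from the step between low values, 17 libraries held from 21200000 to 77800000 reads, and 3 held far fewer, namely S15 of the pBTSCs, S13 of the CD45-/EpCAM+ cells and S22 of the CD146+ cells, from 455000 to 1570000. The value of 3 reads, used here as the floor of detection with values up to 2% over it counted as at the floor, was 0.680 to 4.28 normalized counts in the 17 deep libraries and 37.7, 77.1 and 156 in S15, S13 and S22. A value at or under the floor says only that the gene was not detectable at that depth, and floors and read numbers cover counting error only. The sort labels were not all borne out by their genes: PTPRC, which encodes CD45, was at 424 to 2687 normalized counts in the CD45+ libraries and at 450 to 3027 in the CD45-/EpCAM+ libraries. ALB, the hepatocyte gene of albumin, was at 513084 normalized counts or more in all 15 liver libraries, including the CD45+, CD31+ and CD146+ ones, so the sorted groups are called by their labels here. In bulk RNA, fewer cells of a type and less RNA per cell cannot be told apart. The study lists each pBTSC library as a piglet of its own, but nothing ties the liver libraries to separate animals, so p-values measure only the spread between these libraries, which in liver may be partly technical.

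**Figure D1:**
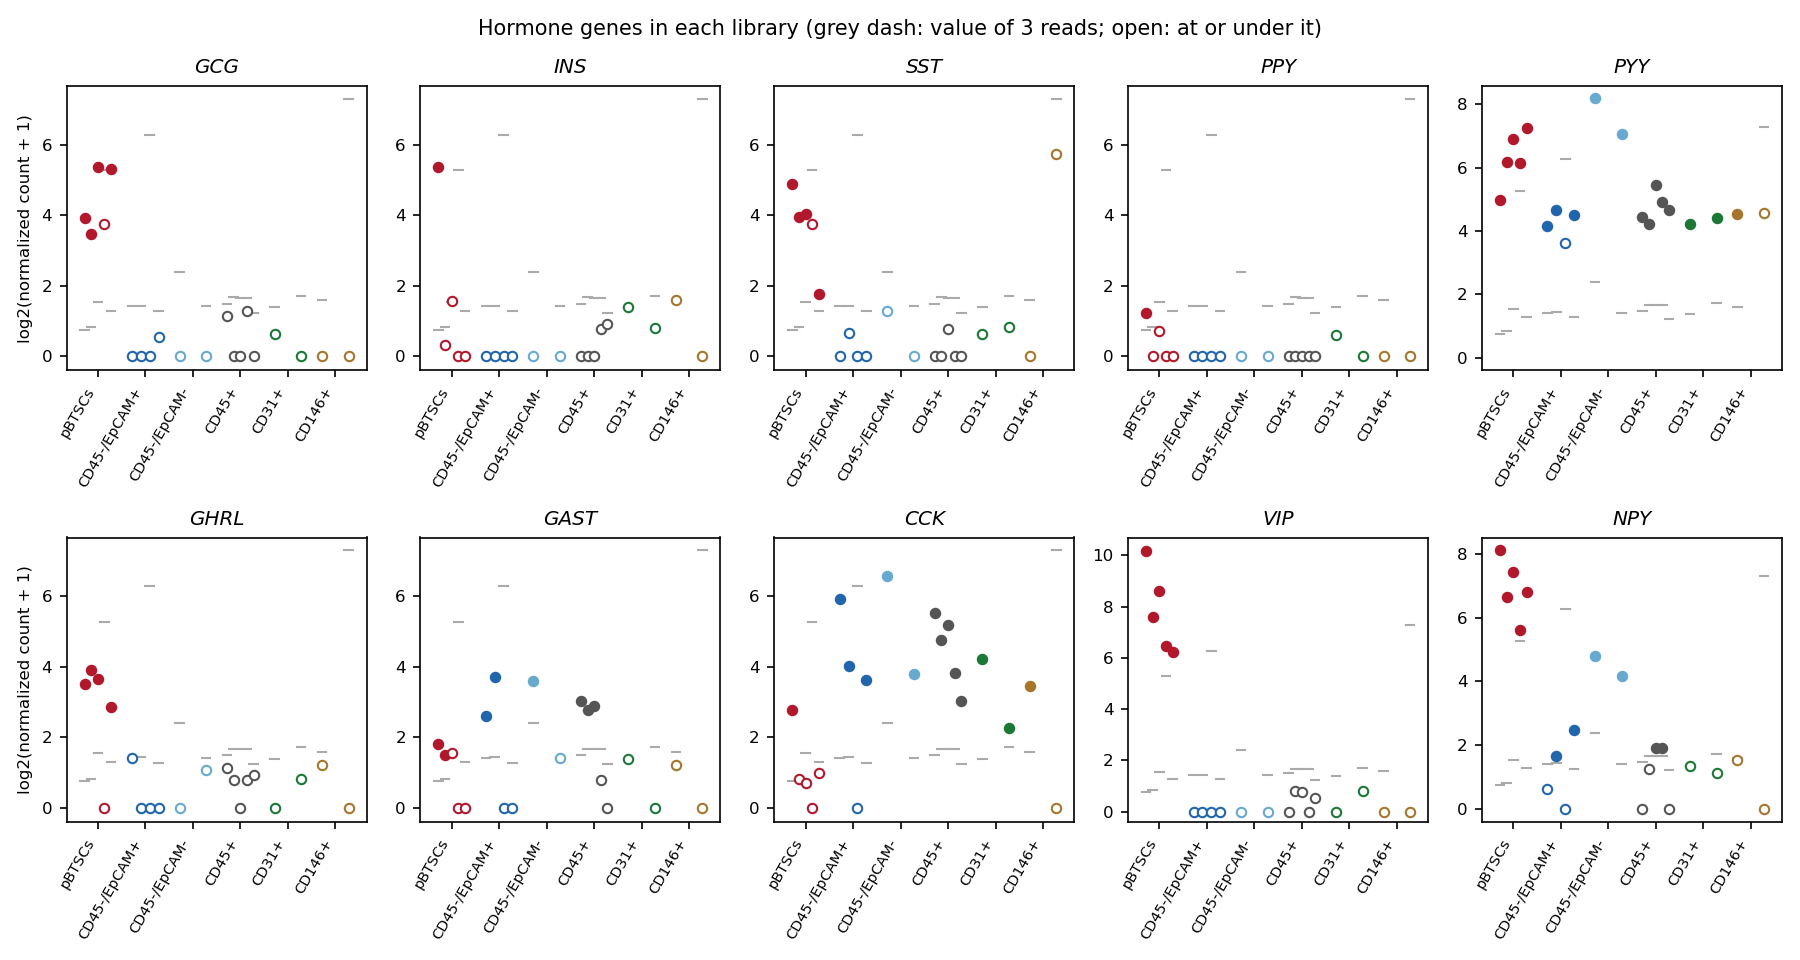
Level of each hormone gene in each of the 20 libraries, as log2(normalized count + 1), by sorted group and in order of library number within a group. Grey dashes mark the value of 3 reads in that library, filled points lie above it and open points at or under it; VIP, GCG and NPY were higher in all 5 pBTSC libraries than in any liver library.

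Of the islet hormones, GCG and SST were detected in pBTSCs, INS in 1 pBTSC library and PPY hardly at all. GCG was at 14.3, 10.1 and 40.1 normalized counts in pBTSC libraries S2, S7 and S11, at 12.6 in S15 and at 38.8 in S20. The value in S15 was 1 read, whereas the other 4 rested on 39.0 to 80.9 reads each. In the 15 liver libraries GCG ranged from 0 to 1.44 and never passed 3 reads. The values did not overlap, though that of S15 lay under its floor, and pBTSCs were higher by 4.13 on the log2(normalized count + 1) scale (p = 6.45e-05 by a two-sided exact permutation test of 5 and 15 libraries, which can give no smaller p, and adjusted p = 4.24e-04 by Benjamini-Hochberg over 15576 genes). Among the 17 deep libraries the groups did not overlap either, and GCG was higher by 4.24 (p = 4.20e-04 by the exact permutation test, the least that 4 and 13 libraries can give, adjusted p = 0.00202). Over the deep libraries 6977 of the 15576 genes had an adjusted p under 0.05 in this test. How many of them were free of overlap there was not counted. Against the highest floor of a deep liver library, GCG was higher by at least 3.34-fold at the pBTSC median. With all libraries included, 11.9% of all genes tested were likewise higher in every pBTSC library than in every liver library and 9.21% lower. In the exact permutation test 43.0% then had an adjusted p under 0.05, 24.8% higher and 18.2% lower. Of the 8 members that could be adjusted in this way, 6 passed, with GCG, SST, GHRL, VIP and NPY higher and CCK lower.

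SST was at 28.8 normalized counts in S2, 14.5 in S7, 15.3 in S11, 12.6 in S15 and 2.40 in S20 of the pBTSCs, again with a single read in S15. In the 13 deep liver libraries SST lay between 0 and 1.43, at or under 3 reads in each. The shallow CD146+ library S22 held 1 read, which there amounts to 52.2 normalized counts, above every pBTSC library. With all libraries SST was higher in pBTSCs by 3.02 log2 units (exact permutation test, p = 0.00258, adjusted p = 0.00903). Among the 17 deep libraries the 4 pBTSC and 13 liver libraries did not overlap, and SST was higher by 3.34 (p = 4.20e-04 by the exact permutation test, which can give no smaller p here, adjusted p = 0.00202). The value of 2.40 in S20 lay under the floor of 4.28 in CD45-/EpCAM- library S5, however, so S20 and S5 cannot be told apart at that depth. At its pBTSC median SST exceeded the highest deep liver floor by at least 3.38-fold.

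INS was at 40.1 normalized counts in pBTSC library S2, about 177 reads. It was at 0.259 in S7, 1.94 in S11 and 0 in S15 and S20, all at or under 3 reads. Liver libraries held from 0 to 1.99 and none passed 3 reads, so 1 of 20 libraries carried detectable INS. Mean INS was 1.08 log2 units higher in pBTSCs than in liver (exact permutation test, p = 0.0889), and INS did not pass the filter used for the test across genes, which asked for 10 or more normalized counts in 2 or more libraries. PPY was also below that filter. Its highest values were 1.35 in S2, 0.647 in S11 and 0.532 in CD31+ library S16, and only S2 passed 3 reads (difference 0.35 on the log2 scale, exact permutation test, p = 0.0526).

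Of the gut hormones, PYY and CCK were detected in nearly every liver library as well, and GHRL passed the floor in pBTSCs but in no liver library. PYY was at 30.5, 71.4, 120, 69.6 and 152 normalized counts in S2, S7, S11, S15 and S20 of the pBTSCs. The CD45-/EpCAM- liver libraries held 295 and 134, and the other 13 liver libraries lay between 11.3 and 43.3, with all 13 deep liver libraries above 3 reads. The pBTSCs thus fell between the CD45-/EpCAM- cells and the other liver sorts, and overlapped both. Against all liver libraries the difference of 1.38 on the log2 scale missed the threshold (exact permutation test, p = 0.0243, adjusted p = 0.0553).

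GHRL was at 10.4 in S2, 13.9 in S7, 11.5 in S11, 0 in S15 and 6.23 in S20. The values of the 4 deep pBTSC libraries rested on 12.99 to 54.0 reads, and S15 could not have shown this level, since its floor was 37.7. In liver GHRL ranged from 0 to 1.68, with no library above 3 reads. GHRL was higher in pBTSCs by 2.24 log2 units (exact permutation test, p = 0.00103, adjusted p = 0.00428) and by 2.85 among the deep libraries, which did not overlap (exact permutation test, p = 4.20e-04, adjusted p = 0.00202). Its pBTSC median exceeded the highest deep liver floor by at least 2.44-fold. MBOAT4, the enzyme that acylates ghrelin, had 1 pBTSC and 2 liver libraries above 3 reads, the highest at 2.23 normalized counts.

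CCK went the other way. It was at 5.89 in pBTSC library S2 and at 0.776, 0.642, 0 and 0.962 in S7, S11, S15 and S20, where it did not pass 3 reads. The CD45+ liver libraries held 45.1, 26.3, 35.2, 13.01 and 7.21, and the CD45-/EpCAM+ libraries 59.8, 15.3, 0 and 11.3, where the 0 was the shallow S13. The CD45-/EpCAM- libraries held 94.5 and 12.8, the CD31+ libraries 17.8 and 3.801, and the CD146+ libraries 10.01 and 0, the latter being the shallow S22. CCK was thus above 3 reads in all 13 deep liver libraries and in 1 of 4 deep pBTSC libraries. It was lower in pBTSCs, with a log2 difference of -2.69 over all libraries (exact permutation test, p = 0.00838, adjusted p = 0.0236) and of -2.999 among the deep ones (p = 8.40e-04 in the same exact test). GAST was low, and above 3 reads in 2 pBTSC and 6 liver libraries. Its highest values were 11.96 in a CD45-/EpCAM+ library and 11.1 in a CD45-/EpCAM- library, and pBTSCs ranged from 0 to 2.49 (difference -0.59, exact permutation test, p = 0.399, adjusted p = 0.515).

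The transmitter peptides VIP and NPY had the largest mean log2 differences of the 10 genes between pBTSCs and all liver libraries. VIP was at 1167 normalized counts in S2, 191 in S7, 394 in S11, 87.9 in S15 and 74.8 in S20, above 3 reads in all 5 pBTSC libraries. In liver it ranged from 0 to 0.762, never above 3 reads, and was at 0 in all CD45-/EpCAM+, CD45-/EpCAM- and CD146+ libraries. At its pBTSC median VIP exceeded the highest deep liver floor by at least 44.6-fold, and by at least 112-fold that of the CD45-/EpCAM+ libraries. NPY was at 275, 99.3, 174, 48.4 and 112 in S2, S7, S11, S15 and S20. The CD45-/EpCAM- liver libraries held 27.1 and 17.1, and the other 13 liver libraries from 0 to 4.53, with 4 of these 13 above 3 reads. Both genes were higher in every pBTSC library than in every liver library, by 7.63 for VIP and 5.40 for NPY on the log2 scale (exact permutation test, p = 6.45e-05 for each, adjusted p = 4.24e-04).

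Across the 10 genes, the order of the group medians differed. For GCG, GHRL, VIP and NPY the pBTSC median was the highest. For SST it was second to the CD146+ cells, whose median rests on the single read in S22, and for PYY, GAST and CCK the highest was that of the CD45-/EpCAM- liver cells. For GCG and VIP the gap between pBTSCs and the next group was free of overlap, and the liver groups below could not be ranked, since all their values lay at or under 3 reads. For NPY the pBTSCs, the CD45-/EpCAM- cells and then the CD45+ cells were separated without overlap, whereas the 4 lower groups overlapped each other. For PYY, GAST and CCK each group overlapped its neighbour in the order. Levels of different genes are not compared, because no gene length was used.

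The 5 liver sorts were then compared with pBTSCs one at a time, for the 8 members that passed the filter, with limma fitted to all 20 libraries and 15576 genes. Calls required an adjusted p under 0.05 together with a log2 difference above 1 in either direction. Against CD45-/EpCAM+ cells, 6 of the 8 were called higher and 0 lower, namely VIP, NPY, GCG, SST, GHRL and PYY, where 14.8% of all genes tested were called higher and 10.3% lower, 25.1% in all. Against CD45-/EpCAM- cells 5 were called higher and 2, CCK and PYY, lower, beside 19.99% and 16.6% of all genes, 36.6% together. Against CD45+ cells 6 were called higher and CCK lower, beside 11.02% and 9.54%, 20.6% together. Against CD31+ cells 4 were called higher and 0 lower, beside 6.73% and 7.62%, 14.4% together. Against CD146+ cells the counts were 4 and 0, beside 14.5% and 7.75%, 22.2% together. In both of these the 4 were VIP, NPY, GCG and PYY. VIP, GCG and GHRL passed the filter through pBTSC libraries alone, with highest liver values of 0.762, 1.44 and 1.68 normalized counts. SST also passed it through pBTSC libraries, since its only liver value of 10 or more was the single read in S22. Members were also chosen with earlier results of these data known. The shares of members and of all genes called higher therefore cannot be weighed against each other, and no test of them was made. The 5 comparisons share the pBTSC libraries and are not independent of each other.

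The median log2 difference of the 8 members was 2.97 against CD45-/EpCAM+ cells, 2.34 against CD45-/EpCAM-, 2.79 against CD45+, 2.67 against CD31+ and 1.95 against CD146+ cells. The median of all genes tested lay between 0.04 and 0.18 in the same comparisons. When every library was rescaled to the same total, the all-gene median moved to between 0.32 and 0.51, and the share of calls that were higher in pBTSCs went from a range of 46.9% to 65.1% up to a range of 61.9% to 76.2%. The fitted difference of NPY was 5.74 ± 0.64 (SE) against CD45-/EpCAM+ cells (adjusted p = 2.53e-06) and 2.44 ± 0.80 against CD45-/EpCAM- cells (adjusted p = 0.0183). GCG differed by 4.23 ± 0.51 (adjusted p = 5.76e-06) from CD45-/EpCAM+ cells and by 3.88 ± 0.48 (adjusted p = 7.64e-06) from CD45+ cells. For VIP the adjusted p ranged from 9.40e-08 to 4.47e-06 over the 5 sorts, and its fitted differences, made against groups at or near 0, depend on the constant added before taking logs.

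PYY was the member called in opposite directions between sorts. It was higher in pBTSCs than in CD45-/EpCAM+ cells by 2.06 ± 0.44 (SE, adjusted p = 0.00123) and lower than in CD45-/EpCAM- cells (difference -1.35 ± 0.54, adjusted p = 0.0480). The latter was lost in 21 of 31 other settings, among them without S2, where the difference was -1.02 (adjusted p = 0.0966), and without CD45-/EpCAM- library S5, where it was -0.79 (adjusted p = 0.444). The count of members called against CD45-/EpCAM- cells fell from 7 to 4 without S2, to 2 without S5 and to 4 without S14, while the calls over all genes went from 5698 to 5498, 3390 and 5862. Without S5 or S14 the group was 1 library, assumed to vary like the other groups. Of the calls lost without S5, those of SST and NPY had differences of 3.68 and 2.75, against 3.04 and 2.44 with it. Leaving out the 3 shallow libraries gave 7 members called against CD45-/EpCAM+ cells, where CCK then joined (difference -3.20, adjusted p = 0.00835), and 6 against CD31+ cells, where GHRL (3.07, adjusted p = 9.66e-04) and SST (2.94, adjusted p = 0.00696) joined. Against CD146+ cells SST then took the place of PYY among the 4 called. SST against CD146+ cells was 0.81 ± 1.06 (adjusted p = 0.612) with S22 and 3.68 (adjusted p = 0.0180) without it. Without S17 the sign turned, to -2.05 (adjusted p = 0.0891), since the single read in S22 was then the only CD146+ value.

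**Figure D2:**
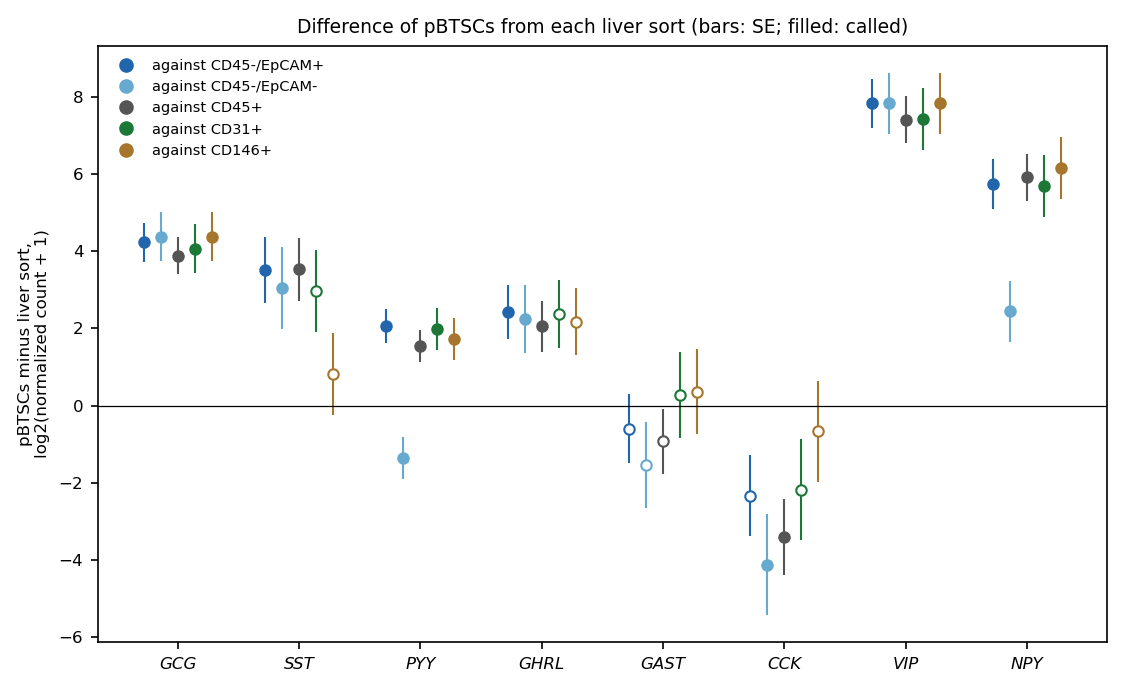
Fitted difference of pBTSCs from each of the 5 liver sorts on the log2(normalized count + 1) scale for the 8 members tested, with bars for the SE and filled points for genes called. VIP, NPY and GCG were called against all 5 sorts, and PYY lay above 0 against 4 sorts and below 0 against CD45-/EpCAM- cells.

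Among the liver sorts themselves PYY and NPY stood out in the CD45-/EpCAM- cells. Over the 5 sorts, the moderated F-test of limma called PYY (adjusted p = 0.0140) and no other of the 8 members, with NPY next (adjusted p = 0.0636), where 4.98% of all genes were called. Against CD45-/EpCAM+ cells, the CD45-/EpCAM- cells were higher by 3.41 ± 0.56 (SE, adjusted p = 0.0111) for PYY and by 3.31 ± 0.83 (adjusted p = 0.0408) for NPY, in a comparison where 0.770% of genes were called higher and 2.03% lower, 2.80% together. Against the other 13 liver libraries, a comparison chosen after the values were seen, both CD45-/EpCAM- libraries lay above all others for both genes. There PYY was higher by 3.15 and NPY by 3.43 on the log2 scale (exact permutation test over 2 and 13 libraries, p = 0.00952 for each, the smallest p these numbers allow, adjusted p = 0.0868), and 5.02% of all genes showed the same separation. Leaving out either CD45-/EpCAM- library leaves 1 library in the group, which is then assumed to vary like the other groups. Without S5 the differences from CD45-/EpCAM+ cells were 2.85 for PYY and 2.99 for NPY, no longer called (adjusted p = 0.408 and 0.660), and the F-test called 0 genes in all. Without S14 they were 3.98 and 3.62, both called (adjusted p = 0.00470 and 0.0428), and the F-test called 1 member and 1270 genes in all. The F-test called 3 members without S17, when CD146+ was the shallow S22 alone, and 2 without CD45-/EpCAM+ library S19, while its calls over all genes went from 776 to 2771 and 1544. The 17 listed neuron genes summed to 303 and 328 normalized counts in S5 and S14, within the 302 to 557 of all 15 liver libraries. In S5 and S14, 6 and 8 of these genes were above 3 reads. The part of neurons in the PYY and NPY values of these libraries was not tested.

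In liver, GAST and CCK went with the library number instead. The 8 liver libraries numbered up to S14 held 36.1 ± 30.3 normalized counts of CCK (SD, n = 8) and the 7 from S15 on 9.01 ± 5.92 (SD, n = 7). GAST was above 3 reads in 6 of the 8 and in 0 of the 7. The numbers are sample numbers in the labels, with no stated meaning, and both CD45-/EpCAM- libraries fall in the lower range while all CD31+ and CD146+ libraries fall in the upper one, so number and sort cannot be told apart for these groups. Within each range the direction of CCK against pBTSCs was the same, at -3.03 for libraries up to S14 and -2.43 from S15 on. VIP differed by 8.60 and 6.17 in the lower and upper range, NPY by 5.59 and 5.02 and GCG by 4.11 and 4.19, each with no overlap between pBTSCs and liver. PYY differed by 0.79 in the lower range, which holds the CD45-/EpCAM- cells, and by 2.15 in the upper. It was free of overlap in the upper range alone. SST, GHRL and INS were free of overlap in the lower range alone, with INS at or under 3 reads in S7 and S11. How many of all genes are free of overlap within a range was not counted.

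The 5 pBTSC libraries themselves differed severalfold, and not in the same order for each gene. S2 was the highest for VIP, NPY, SST, INS, PPY, GAST and CCK, and the lowest for PYY. GCG was highest in S11 and S20, PYY in S20 and GHRL in S7. VIP spanned from 74.8 to 1167 and PYY from 30.5 to 152. For VIP the 3 H2B-GFP piglets, at 191 to 1167, lay above the 2 wild-type piglets, at 74.8 and 87.9. The same held for SST, at 14.5 to 28.8 against 2.40 and 12.6, for GHRL, at 10.4 to 13.9 against 0 and 6.23, and for GAST and INS, which were at 0 in both wild-type piglets. The wild-type library S15 was shallow, and its values of SST, GHRL, GAST and INS lay under its floor. INS in S7 and S11 and GAST in S11 were also at or under 3 reads. How many of all genes separate the 2 lines in this way was not counted, so these separations cannot be read as a trait of the members. For GCG, PYY, NPY, PPY and CCK the 2 lines overlapped. The line is not in the labels and goes with the range of library numbers, so no test was made. The study lists a lower RNA integrity for S2, S7 and S11 than for S20, and none for S15, which was not taken into account. The summed level of the 10 hormone genes ran from 231 to 1576 normalized counts in pBTSCs and from 11.3 to 429 in liver.

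The INS signal of S2 was accompanied by RNA of some genes of the exocrine pancreas. The genes of this paragraph were chosen after their values were seen, from lists of exocrine and beta cell genes and of neurons. PRSS2, a trypsinogen, was at 22.9 normalized counts in S2 and at or under 0.480 in the other pBTSC libraries. CLPS, which encodes colipase, was at 12.2 in S2 and at or under 0.259 in the others. CPB1, a carboxypeptidase, was at 7.71 in S2 and at most 0.959 in the others, and CPA1, another carboxypeptidase, was at 61.7 in S2 and from 0 to 12.7 in the others. S2 was thus the highest pBTSC library for all 4. Of the 18 exocrine genes listed, 13 had a row, and they summed to 208 in S2 and from 0 to 60.7 in liver. In S20, where INS was at 0, the sum was 162, most of it from listed genes other than the 4 named above. In S7, S11 and S15 the sum was 89.5 to 93.4. PNLIP, the pancreatic lipase gene, was at 0.227 and CELA2A, an elastase gene, at most 0.259 in pBTSCs. The part of these genes in the INS value was not tested.

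Of 7 other beta cell genes listed, 6 had a row, and in S2 ABCC8 and SLC2A2 were above 3 reads and the other 4 were not. ABCC8, a subunit of the potassium channel that insulin-releasing drugs close, was at 62.4 in S2 and 17.9 to 38.6 in the other pBTSC libraries. SLC2A2, a glucose transporter that hepatocytes also use, was at 338 in S2, 125 to 297 in the other pBTSC libraries and 1767 or more in liver. S2 was the highest pBTSC library for both. G6PC2 was at 0 in all 20 libraries, and IAPP, the gene of islet amyloid polypeptide, was at 0 in S2. UCN3, a peptide of mature beta cells, was at 0.226 there and SLC30A8, a zinc transporter of insulin granules, at 0.656. TH, which encodes tyrosine hydroxylase, lies next to INS in the RefSeq gene table of the pig assembly Sscrofa11.1. TH was at 27.4 in S2, 12.7 in S11, 6.45 in S7, 0.958 in S20 and 0 in S15. It was thus highest in the same library as INS, but it was also above 3 reads in S7 and S11, where INS was not.

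**Figure D3:**
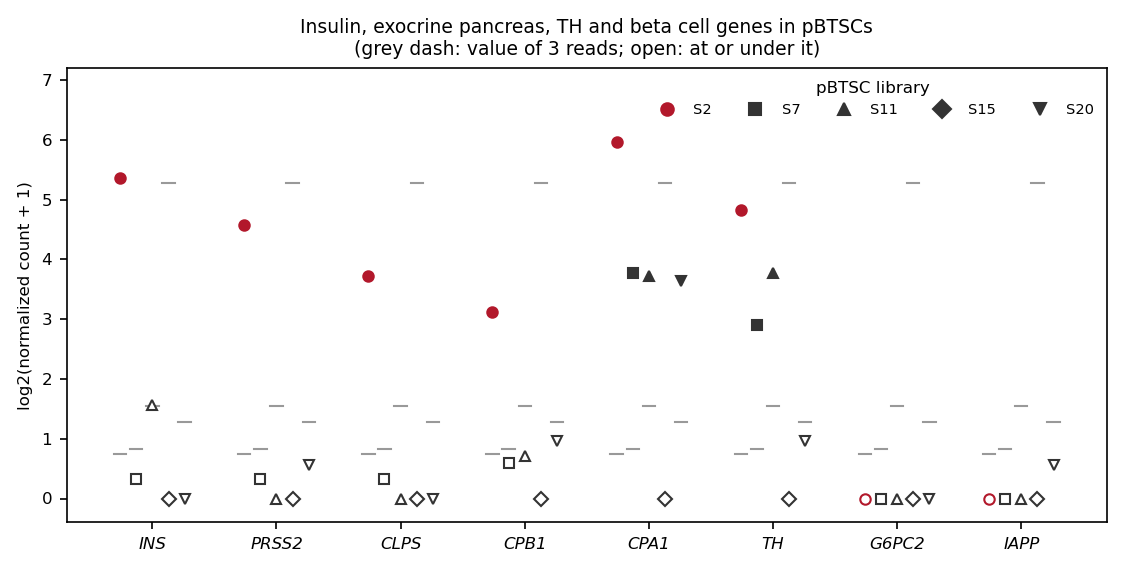
INS with 4 exocrine pancreas genes, TH and the beta cell genes G6PC2 and IAPP in the 5 pBTSC libraries, as log2(normalized count + 1). The genes beside INS were chosen after their values were seen. Grey dashes mark the value of 3 reads in that library and open points lie at or under it; S2 was the only library above 3 reads for INS, PRSS2, CLPS and CPB1.

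Receptors of the hormones were called in both directions, as were all genes tested. Of 21 receptor genes listed, 13 were tested, and against CD45-/EpCAM+ cells 6 were called higher, 3 lower and 4 in neither direction, with a median log2 difference of 1.02. Against CD45-/EpCAM- cells the counts were 6, 2 and 5, against CD45+ cells 6, 3 and 4, against CD31+ cells 2, 3 and 8, and against CD146+ cells 4, 3 and 6. In these 5 comparisons, in this order, 14.8%, 19.99%, 11.02%, 6.73% and 14.5% of all genes were called higher. Called lower were 10.3%, 16.6%, 9.54%, 7.62% and 7.75%. The receptor shares were not tested against these. GCGR, the glucagon receptor through which the liver raises glucose output, was at 11.9 to 62.8 normalized counts in pBTSCs and at 485 to 1484 in liver (difference -5.10 ± 0.42 from CD45-/EpCAM+ cells, SE, adjusted p = 9.62e-08). GLP1R, the receptor of glucagon-like peptide 1, went the other way, at 11.98 to 31.7 in pBTSCs and 0 to 5.18 in liver (3.68 ± 0.63, adjusted p = 2.07e-04). GCG was thus above the floor in pBTSC libraries alone, whereas GCGR was higher in every liver library than in any pBTSC library.

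The VIP receptors also divided. VIPR2 was at 187 to 517 in pBTSCs and 0 to 82.7 in liver (3.60 ± 0.98 against CD45-/EpCAM+ cells, adjusted p = 0.00778). VIPR1 was at 69.6 to 116 in pBTSCs and 267 to 827 in liver (-2.74 ± 0.26, adjusted p = 3.62e-07). ADCYAP1R1, which encodes the receptor of the VIP relative PACAP, was at 70.2 to 183 in pBTSCs and 0 to 32.3 in liver (3.28 ± 0.69, adjusted p = 0.00120).

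CCKAR, the receptor by which cholecystokinin acts on the gallbladder, was at 79.3 to 628 in pBTSCs and 7.80 to 52.2 in liver, with no overlap (3.30 ± 0.48 against CD45-/EpCAM+ cells, adjusted p = 4.33e-05). Its ligand gene CCK was the member lower in pBTSCs. NPY1R, a receptor of NPY and PYY, was at 907 to 1243 in pBTSCs and 41.0 to 731 in liver (2.63 ± 0.48, adjusted p = 3.35e-04). In liver NPY1R lay between 41.0 and 228 in the 8 libraries up to S14 and between 533 and 731 in the 7 from S15 on, and it was not called against CD31+ or CD146+ cells, which all belong to the upper range (0.69, adjusted p = 0.518, and 0.62, adjusted p = 0.475). The CD45-/EpCAM- libraries, where PYY and NPY were highest among liver cells, had the 2 lowest NPY1R values, 41.0 and 62.3. INSR, the insulin receptor, was at 607 to 754 in pBTSCs and 483 to 1374 in liver and was not called (-0.17 ± 0.26, adjusted p = 0.636).

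**Figure D4:**
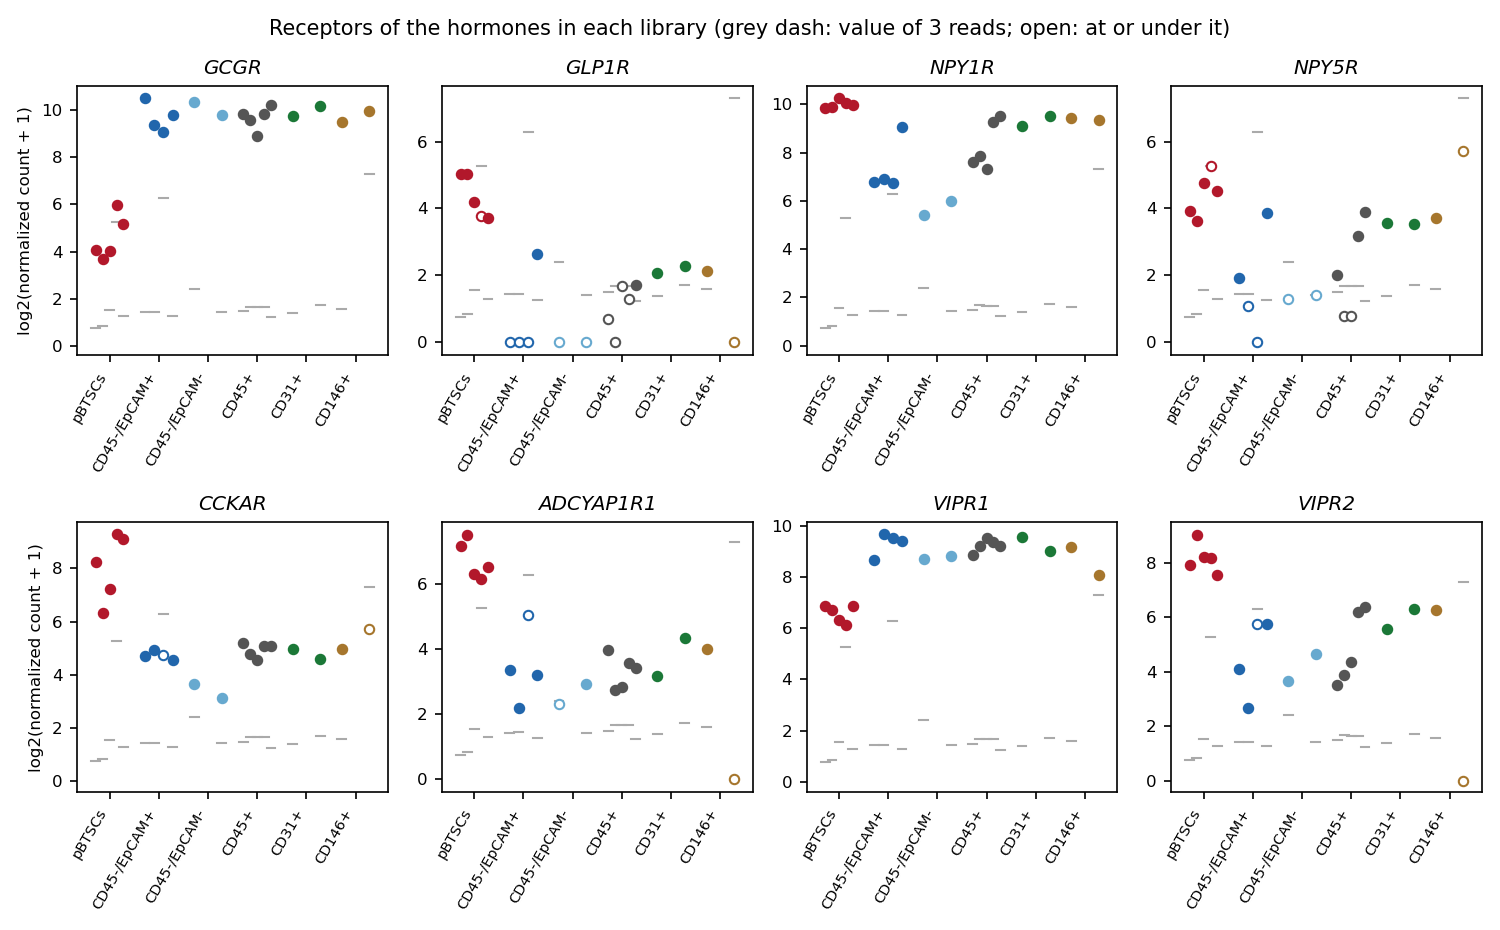
Level of 8 receptor genes of the hormones in each library, as log2(normalized count + 1), by sorted group. Grey dashes mark the value of 3 reads and open points lie at or under it; GCGR and VIPR1 were lower and CCKAR, VIPR2 and ADCYAP1R1 higher in all 5 pBTSC libraries than in all liver libraries.

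Other secreted peptides and the machinery that makes them were called higher in pBTSCs in part. Of 19 further peptide and granin genes listed, 10 were tested, and 7 were called higher and 1 lower against CD45-/EpCAM+ cells, with a median log2 difference of 4.11. In that comparison 14.8% of all genes tested were called higher and 10.3% lower. CHGA, a granin of secretory granules, was at 134 to 1025 normalized counts in pBTSCs and at 0 to 7.22 in liver. GAL, the gene of the neuropeptide galanin, was at 168 to 522 and 0 to 7.58, and SCG2, another granin, at 117 to 447 and 0 to 1.08. UCN3 was the gene called lower (-3.66 ± 0.79 SE, adjusted p = 0.00148). Of the 16 processing and granule genes tested, 9 were called higher and 1, DPP4, a peptidase that inactivates gut hormones, lower. The higher ones held the prohormone convertases PCSK1 (2.72 ± 0.98, adjusted p = 0.0359) and PCSK2 (4.09 ± 0.61, adjusted p = 4.92e-05) and the carboxypeptidase CPE (2.35 ± 0.36, adjusted p = 7.47e-05).

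Transcription factors of endocrine cells gave a mixed picture. Of 16 listed, 8 were tested and 4 were called higher against CD45-/EpCAM+ cells, namely NKX6-1, INSM1, ISL1 and LMX1A, with values in pBTSCs of 5.16 to 36.9, 0 to 33.8, 0 to 146 and 2.75 to 41.2 normalized counts. These factors are also used by neurons. In that comparison 14.8% of all genes tested were called higher. NEUROG3, NEUROD1 and PAX4, which drive endocrine cells of gut and islet to form, had highest values in pBTSCs of 2.49, 1.36 and 0.453 and did not pass the filter. These 3 were named after their values were seen. Of the 16 factors, 14 were above 3 reads in S2, 13 in S7 and 9 in S11 and in S20, and from 4 to 9 in the deep liver libraries. S2 and S7 were also the deepest libraries. Missing the filter thus does not mean that a factor was not detected.

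Most of the listed markers of neurons were higher in pBTSCs than in the liver sorts. All 17 neuron genes listed were tested, and 15 were called higher and 0 lower against CD45-/EpCAM+ cells, 14 against CD45-/EpCAM-, CD45+ and CD146+ cells and 12 against CD31+ cells, with 0 lower in each. In the same order, 14.8%, 19.99%, 11.02%, 14.5% and 6.73% of all genes were called higher, and against CD45-/EpCAM+ cells 10.3% lower. Their summed level was 1829 to 3713 normalized counts in pBTSCs and 302 to 557 in liver, and SLC18A3, the vesicular acetylcholine transporter, was at 0 in all liver libraries. Of 5 glial genes tested, 3 were called higher against CD45-/EpCAM+ cells, with summed levels of 4472 to 18333 in pBTSCs and 2385 to 5430 in liver. Of 5 biliary epithelial genes tested 1 was called higher and 1 lower, all 6 hepatocyte genes were called lower, and of 7 leukocyte genes 3 were called lower. The part of neurons, glia or other cell types in the hormone values was not tested.

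The genes closest to each member in pattern were taken over the 17 deep libraries by Pearson correlation of log2(normalized count + 1). These values describe libraries that share their groups and depths, and no test was made on them. Closest to VIP were SLC5A7, the choline transporter of cholinergic nerve endings (r = 0.995), the neurofilament gene NEFM (r = 0.993) and SLC18A3 (r = 0.992). SST had KCNK10, a potassium channel gene (r = 0.976), SLC18A3 (r = 0.963) and GALNT3 (r = 0.960). GCG had BRINP2 (r = 0.976), LVRN (r = 0.974) and SSC5D (r = 0.971), and GHRL had TRHR, the receptor of thyrotropin-releasing hormone (r = 0.961), the neurofilament-type gene INA (r = 0.948) and ADCYAP1R1 (r = 0.946). PYY was closest to SNCG, the gene of gamma-synuclein (r = 0.970), followed by TRA2A (r = 0.929) and SEPT1 (r = 0.916), and NPY to SLC16A14 (r = 0.948), PYGB (r = 0.941) and FHDC1 (r = 0.930). CCK was closest to EBP, an enzyme of cholesterol synthesis (r = 0.924), GLTPD2 (r = 0.923) and MMAB (r = 0.920), and GAST to GAR1 (r = 0.911), BZW2 (r = 0.907) and WDR4 (r = 0.904). SLC18A3 stood among the 3 closest genes of both VIP and SST. INS and PPY were above 3 reads in 1 deep library each and were not compared.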

How the data were processed

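RNA of the 20 libraries was sequenced from poly(A) RNA with a stranded kit. Values were used as the authors deposited them, as a signal of normalized counts per gene and library in 1 table. The submitters' processing notes name STAR, Salmon and DESeq2, whereas versions and the genome build are not given in the sources used here, so no coordinates are printed. The value of 1 read was estimated from the low values of each library, and depth as the total divided by it. Low values were within 0.05 reads of whole reads in at most 84.3% of cases, and no count test was run.

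Values plus 1 were put on the log2 scale, and 15576 genes that reached 10 normalized counts in 2 or more libraries were fitted with limma 3.58.1 (R 4.3.3), all 6 groups together, using moderated variances with a trend. Genes were called at a Benjamini-Hochberg adjusted p under 0.05 and an absolute log2 difference above 1. Exact two-sided permutation tests compared mean log2 values of 5 pBTSC and 15 liver libraries. Adjustment over the members alone had been planned for these and was replaced by adjustment over all genes tested. Both steps were tested on simulated data. Python 3.11.15, numpy 2.4.6, pandas 2.3.3, scipy 1.17.1 and matplotlib 3.10.9 were used.

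All members are named, and of the other lists genes called in a comparison or among the 3 highest in pBTSCs, with exceptions marked. The 3 genes most alike in pattern are given for members above 3 reads in at least 4 deep libraries. Members and lists were chosen with earlier results of these data known. Of 140 other listed genes, 128 had a row. All 10 members were found in the RefSeq table of Sscrofa11.1. Alternatives were other pseudocounts, filters, scaling, weights and fits, and each library left out in turn. Leaving out S2 was chosen after seeing the data. Replicates were not paired.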

Additional observations from a re-analysis of the deposited data

Results flagged for a closer look

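INS in the pBTSCs was flagged because library S2, at 40.1 normalized counts, stood apart from the other 4 libraries, which ranged from 0 to 1.94. The gap to the nearest library was 0.952 of the group's whole range, above the critical value of 0.71 for 5 samples. CCK in the pBTSCs was flagged for the same library, at 5.89 normalized counts against 0 to 0.962 in the others, with a gap of 0.837 of the range. Each of 18 pairs of a member and a group with a value above 3 reads was examined in this way and 2 were flagged. Both flagged pairs were examined only because of S2, their 1 library above 3 reads, so the flags cannot be set against a chance rate.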

How the results depend on the processing

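The calls of VIP and GCG against each sort and against all liver libraries were kept under every alternative run, 31 per sort and 26 for all liver libraries, and those of NPY too except against CD45-/EpCAM- cells, where 3 were lost. The number of members called against CD45-/EpCAM- cells was 7, and 4 with a pseudocount of 0.1 or without S2. Against CD31+ cells it was 4, and 7 with array weights. Among the liver sorts it was 1, then 2 without the 3 shallow libraries, 0 with array weights and 0 with values at or under 3 reads set to 0. SST against CD146+ cells turned to -0.10 with a pseudocount of 10 and to -2.05 without S17, with a range from -2.05 to 3.68 when each replicate was left out. Without each replicate in turn the counts ranged from 6 to 7 against CD45-/EpCAM+ and CD45+ cells, from 2 to 7 against CD45-/EpCAM- cells, from 3 to 5 against CD31+ and CD146+ cells, from 0 to 3 among the liver sorts and from 5 to 7 against all liver libraries. Other causes of these shifts were not tested. A permutation test on medians was run on members only, without adjustment: 7 of 10 had an unadjusted exact p under 0.05, as for means. GHRL lost its call against CD45-/EpCAM- cells in 10 of 30 settings and against CD45+ cells in 7. INS and PPY had no value under the filters. No paired analysis was possible because no label gives a number that libraries of different groups share or ties a number to an animal. Depth limits any statement on S13, S15 and S22, and a fitted log2 difference understates changes of low genes.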
